A study of Takifugu obscurus and Periophthalmus magnuspinnatus and Gallus gallus with 6 samples.

Results

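The cadherins and protocadherins of the fugu and chicken spinal cord were described across cell classes in single-cell RNA-seq libraries. Members were all genes of the 2 annotations whose symbol starts with CDH or PCDH followed by a digit. This took 40 of 21383 fugu genes and 30 of 17007 chicken genes, and no measured value entered the choice. By family, the chicken set held 5 type I and 11 type II classical cadherins, 3 other cadherins, 3 delta-1, 5 delta-2 and 3 other single protocadherins. The fugu set held 6 type I and 12 type II classical cadherins, 1 other cadherin, 6 delta-1, 8 delta-2, 4 other single and 3 clustered protocadherins.

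Cadherins are transmembrane proteins whose extracellular repeats bind calcium and join to cadherins of a neighbouring cell. Classical cadherins are tied to actin through catenins, and their type I and type II subfamilies differ in the adhesive interface, so that cells with different sets tend to sort apart. Delta-protocadherins carry a longer (delta-1) or shorter (delta-2) ectodomain, and delta-2 members act on actin through the WAVE complex, while clustered protocadherins give single neurons an identity used in self-recognition. In the spinal cord, cadherin combinations mark neuron pools and glial domains, and oligodendrocyte precursors pass through committed precursors to myelin-forming cells.

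Fugu were juveniles about 1 month post-hatching, called Takifugu obscurus in the labels and a hybrid with Takifugu rubripes in the study's methods, and their reads were mapped to Takifugu rubripes. Chicken (Gallus gallus) embryos were taken at embryonic days 10 to 11 (Hamburger-Hamilton stages 36 to 37). Each species gave 2 libraries of the rostral cord, at the level of the pectoral fin or the wing, from untreated animals with no genotype or strain stated, and each library pooled cells of several animals that were sorted as live by exclusion of propidium iodide. A library is therefore the replicate (n = 2 per class), and because nothing states that the pools came from separate dissections, p-values measure the spread between these libraries only.

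The fugu libraries held 25763932 and 25721131 UMIs (unique molecular identifiers, each standing for a captured RNA molecule), and the chicken libraries 129947198 and 131974386. Above the minimum of 3000 UMIs in fugu, and 5000 and 5500 in the chicken libraries, lay 2556 and 2519 fugu cells and 7626 and 7743 chicken cells after removal of likely doublets. Their median depth was 5386 and 5455 UMIs in fugu and 12124.5 and 12440 in chicken. The libraries of a species differed by far more than counting error over genes (chi-square per degree of freedom 17.5 in fugu and 82.0 in chicken) and shared 0 and 17 cell barcodes. Levels are CPM, the counts of a gene summed over the cells of a class and scaled to the UMIs of that class, library 1 before library 2. A higher CPM sum cannot separate more RNA per cell from more cells that carry the gene.

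Cells were clustered without the member genes and named from marker lists. In chicken, classes of the oligodendrocyte lineage were precursor-like (644 and 469 cells, PDGFRA among the leading genes), cycling precursor-like (115 and 90), committed precursor-like (1103 and 1142, GPR17 and BCAS1), premyelinating-like (846 and 1111, ENPP6 and PLLP), a cycling class (582 and 625) and another class led by MCM2 and CDCA7 (854 and 885). In fugu the classes taken as the lineage in the main comparison with astrocyte-like cells were committed precursor-like (57 and 43 cells, gpr17) and mature oligodendrocyte-like (1234 and 1113, cd59a and plp1b). A fugu cluster led by sema5a, ccn2a and c1ql4b (142 and 95 cells) is called the sema5a panel class here. The marker list behind this name was taken as the study's radial glia panel. For radial glia the study's text itself names Sox2, Vim and Slc1a2. The label of this class is not settled by its markers. The class met the rule for a lineage class, SOX10 in at least 50% of cells, but was kept out of the main fugu lineage mean. The class reached the marker level for 5 of 6 oligodendrocyte lineage markers (mature cells 5 and committed cells 2), 2 of 6 committed precursor markers and 2 of 7 neuron markers. SOX10 was detected in 86.6% and 88.4% of its cells, olig1 in 43.7% and 34.7%, nkx6.2 in 1.41% and 3.16%, the neuronal snap25a in 93.0% and 93.7% (30.9% and 29.8% of mature oligodendrocyte-like cells, at a median of 5077 UMIs against 5568) and both stmn2b copies in at most 8.42%. Free RNA was present in the fugu libraries: the myelin gene plp1b had a UMI in 77.8% and 70.6% of T or NK cell-like cells, which should lack it.

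Member transcripts were a small share of all RNA and were spread unevenly over classes. They made up 0.815% and 0.774% of the UMIs of chicken cells and 0.162% and 0.164% of those of fugu cells. In chicken the summed level was 12628 and 12351 CPM in precursor-like cells, 9303 and 8699 in inhibitory neuron-like cells, 9230 and 8718 in premyelinating-like cells and 8847 and 9269 in astrocyte or radial glia-like cells. It was 6515 and 5876 CPM in committed precursor-like cells and 192 and 247 in cells led by the globin HBBA. PCDH9 alone supplied 5991 and 5796 CPM of the precursor-like sum and 5261 and 5098 of the premyelinating-like sum. These sums therefore do not describe the members as a whole. In fugu the sema5a panel class (6592 and 6948 CPM), excitatory (6600 and 6280) and inhibitory (5214 and 5823) neuron-like classes held the most, and the mature oligodendrocyte-like class 289 and 304 CPM. Lower fugu sums were found in the microglia-like (248 and 122), T or NK cell-like (41.8 and 188) and hbbe2 (114 and 121) classes. The sema5a panel and excitatory ranges overlapped.

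**Figure D1:**
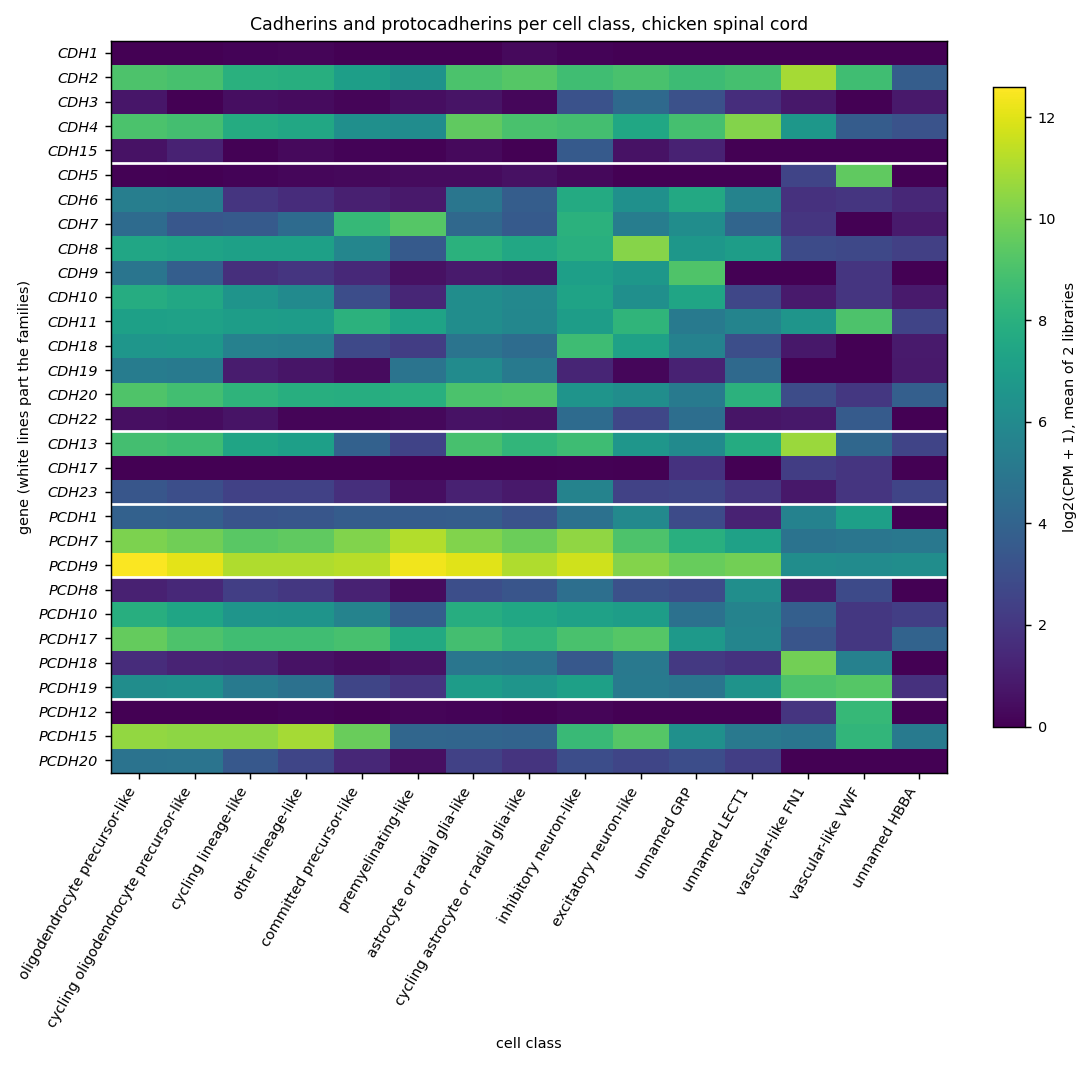
Levels of the 30 chicken members (rows, grouped by family with white lines between families) in each cell class (columns), as log2(CPM + 1) of the mean of 2 libraries. PCDH9, PCDH7 and PCDH15 were high over many classes, whereas CDH5 and PCDH12 were bright in the VWF vascular-like class.

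**Figure D2:**
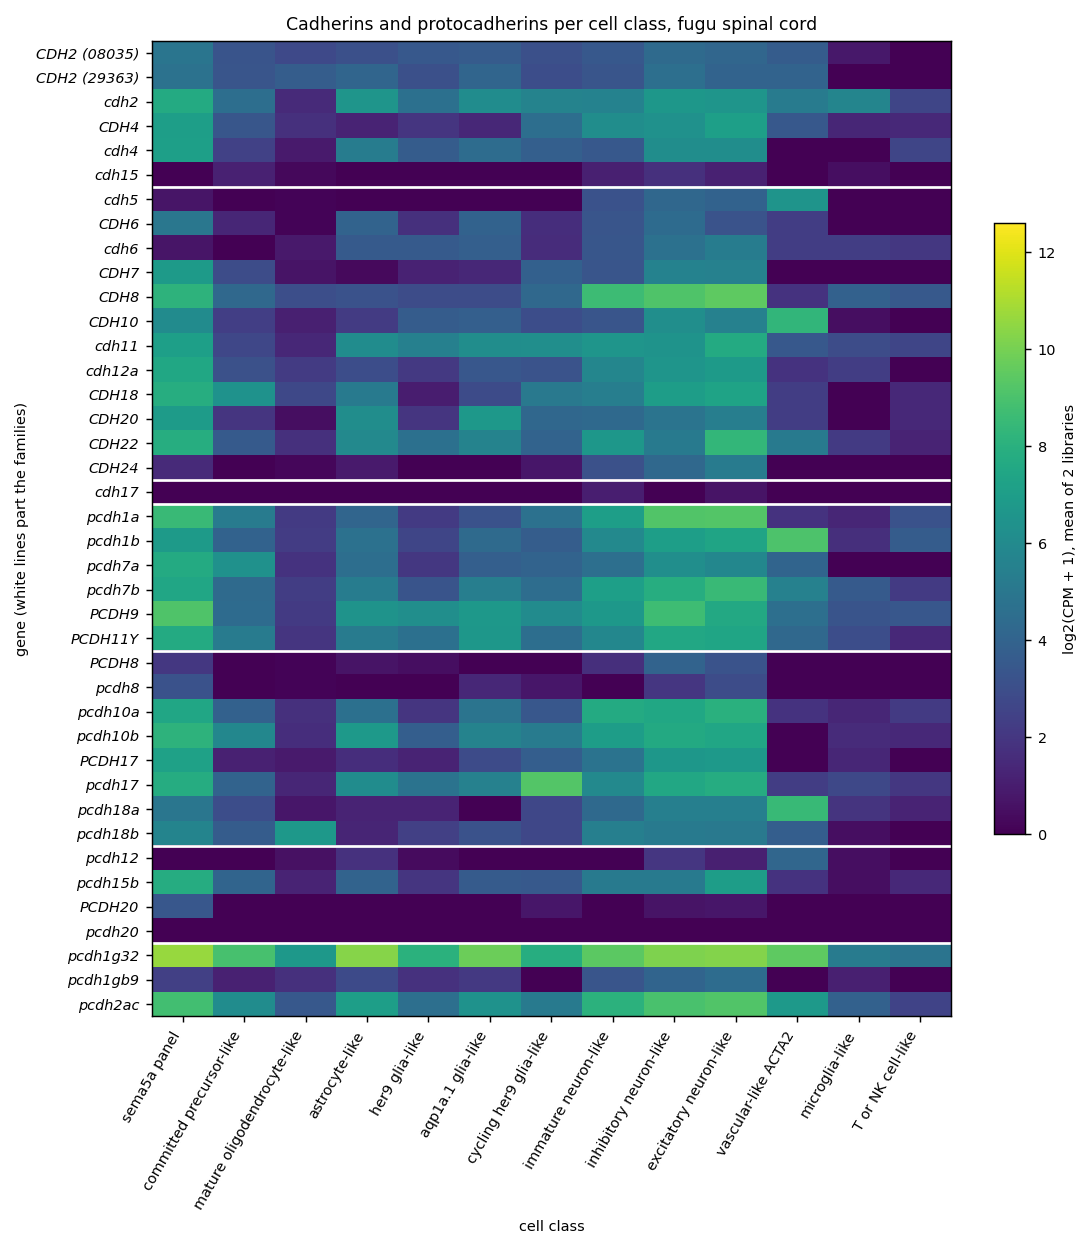
Levels of the 40 fugu members (rows, grouped by family with white lines between families) in each cell class (columns), as log2(CPM + 1) of the mean of 2 libraries. Of 39 rows with a UMI, 18 were brightest in the sema5a panel class, 11 in excitatory neuron-like cells and 5 in the ACTA2 class. The share of all genes brightest in these classes is not given. In mature oligodendrocyte-like cells pcdh18b (99.9 and 107 CPM) and pcdh1g32 (103 and 105 CPM) stood above the other rows, which were at most 12.95 CPM.

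All 30 chicken members and 39 of 40 fugu members had a UMI in the kept cells. The tests took genes detected in 10% or more of a class, which 28 chicken and 32 fugu members were. The chicken members below it were CDH1 (E-cadherin, 10 UMIs) and CDH17 (9 UMIs). Of the 8 fugu members below it, pcdh20 (ENSTRUG00000008900) had 0 UMIs, which allows up to 0.192 CPM in either library (3 counts, for counting error only), and cdh17 had 2. The mean over libraries was highest in the sema5a panel class for 18 fugu members and in excitatory neuron-like cells for 11. Among chicken members it was highest in the VWF vascular-like class for 5, and in the precursor-like, inhibitory neuron-like and FN1 vascular-like classes for 4 each. The share of all genes highest in each class is not given, so these counts do not set the members apart from other genes.

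In chicken the question was which members separate precursors from later oligodendrocytes. Of 21 members tested between precursor-like and premyelinating-like cells, 15 were called higher in precursor-like cells and 3 lower, against 29.6% and 44.1% of all 9283 genes tested. Of these 21, 10 passed the filter through precursor-like cells alone, 9 of which were among the 15, so a higher level there was part of their selection. Of the 11 that passed in both classes, 6 were called higher and 3 lower, and with no filter 16 of 30 members were higher and 3 lower. No share of all genes is given for these counts. A member was called at an edgeR adjusted p below 0.05 with a log2 change of more than 0.25 either way. Fold changes are relative to edgeR's scaling, which lowered precursor-like levels by 0.27 and 0.31 and raised premyelinating-like levels by 0.30 and 0.33 on the log2 scale.

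PCDH15, a protocadherin known from the tip links of hair cells, had 1485 and 1561 CPM in precursor-like cells against 19.4 and 14.0 in premyelinating-like cells, with no overlap (log2 fold change 5.92 ± 0.296 SE, edgeR adjusted p 3.94e-14). CDH13, which is anchored to the membrane by a lipid and lacks a cytoplasmic tail, had 432 and 469 CPM against 5.30 and 4.14 (5.99 ± 0.289, adjusted p 2.14e-14). CDH23, the partner of PCDH15 in tip links, was low, at 10.6 and 8.39 CPM against 0.284 and 0.475, and was also called higher (3.95 ± 0.575).

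Type II cadherins went both ways, with 6 of 9 tested higher in precursor-like cells and 2 lower, against 29.6% and 44.1% of all genes tested. Over all families, 9 of the 15 members called higher passed the filter through precursor-like cells alone. The counts per family therefore do not set the families apart from other genes. CDH10 had 239 and 212 CPM in precursor-like cells against 1.99 and 1.09 (log2 fold change 6.64 ± 0.267 SE, edgeR adjusted p 1.26e-15), the largest change among the members. CDH9 (29.6 and 28.6 CPM against 0.568 and 0.407), CDH6 (50.9 and 32.1 against 0.758 and 0.882) and CDH18 (99.6 and 98.0 against 4.07 and 3.80) followed, with log2 fold changes of 5.29, 5.03 and 4.05, and CDH8 (3.40) and CDH20 (0.54) were the other two called higher. CDH7 was the reverse of CDH10: it had 19.5 and 21.1 CPM in precursor-like cells against 672 and 586 in premyelinating-like cells (-5.55 ± 0.321, adjusted p 1.06e-12). CDH11, best known from mesenchyme and bone, had 138 and 146 CPM against 161 and 158 and was called lower (-0.77 ± 0.185, adjusted p 0.000796), but it was no longer called with library totals alone (-0.16), at a clustering resolution of 1.0 (-0.30) or without library 1 (-0.60). CDH19 did not pass the test (-0.08 ± 0.466).

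The delta-2 members tested were called higher, with the same limit of the filter, and were PCDH19, PCDH10 and PCDH17 (1.37). PCDH19, whose human gene is mutated in an epilepsy of girls, had 75.03 and 66.8 CPM against 2.18 and 3.46 (log2 fold change 4.01 ± 0.305 SE). PCDH10, also called OL-protocadherin, had 237 and 244 CPM against 11.0 and 14.3 (3.63 ± 0.186). PCDH20, of the other single protocadherins, was at 27.8 and 25.2 CPM against 0.568 and 0.271 (5.40 ± 0.347). Of the type I cadherins, N-cadherin (CDH2) had 548 and 524 CPM against 110 and 62.8 (2.04 ± 0.222) and R-cadherin (CDH4) 527 and 517 against 73.1 and 66.6 (2.30 ± 0.152). For these 5 the libraries of the classes did not overlap.

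Of 3 delta-1 protocadherins tested, 0 were called higher in precursor-like cells and 1 lower, against 29.6% and 44.1% of all genes tested. PCDH7 was called lower there, at 1103 and 1090 CPM against 2434 and 2174 (log2 fold change -1.67 ± 0.291 SE, edgeR adjusted p 2.18e-05). PCDH9 had 5991 and 5796 CPM in precursor-like cells and 5261 and 5098 in premyelinating-like cells and did not pass the test (-0.41 ± 0.230, adjusted p 0.109). PCDH1 did not pass it either (14.1 and 14.1 CPM against 12.4 and 10.6). With library totals alone PCDH7 was still called lower (-1.07), and the fold changes of PCDH9 (0.19, adjusted p 0.493) and PCDH1 (0.30, adjusted p 0.108) were above 0 and not called.

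The 8 clusters behind the lineage classes showed how these levels were distributed. PCDH15 was between 1186 and 1906 CPM in the precursor-like cluster, in both cycling clusters, in the MCM2 cluster and in the committed cluster led by GPR17. It was at 354 and 402 CPM in the committed cluster led by CMTM7 and at most 30.9 CPM in the premyelinating clusters. CDH7 took the opposite order, with at most 23.0 CPM in the precursor-like, cycling and MCM2 clusters, 185 and 148 in the GPR17 cluster, 610 and 511 in the CMTM7 cluster, 473 and 423 in the premyelinating cluster led by PLLP and 866 and 785 in that led by FABP9.

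CDH10, CDH13 and CDH4 marked the precursor-like clusters off from all the rest of the lineage. CDH10 had 239 and 212 CPM in the precursor-like and 184 and 189 in the cycling precursor-like cluster, then 94.5 and 90.05 in the cycling lineage cluster and 13.7 and 8.76 in the GPR17 cluster. CDH13 had 432 and 469, 421 and 409, 156 and 175, and 21.4 and 21.0 CPM in the same clusters. CDH4 was at 527 and 517 CPM in the precursor-like cluster and at most 217 outside the precursor-like pair. In each case both libraries gave the same order.

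Some members were uneven within a class that the comparison above treated as one. PCDH9 had 7836 and 7513 CPM in the PLLP cluster and 2746 and 2147 in the FABP9 cluster, so the premyelinating-like sum lay between values that differed by more than the libraries did. CDH19, a cadherin of glia of the peripheral nervous system, had 67.7 and 39.2 CPM in the PLLP cluster, 0 and 0.452 in the FABP9 cluster, at most 0.815 in the committed clusters and 55.1 and 22.5 in precursor-like cells. PCDH17 had 107 and 104 CPM in the PLLP cluster and 326 and 273 in the FABP9 cluster. CDH11 was highest of the lineage in the CMTM7 cluster, at 294 and 327 CPM, and lowest in the PLLP cluster, at 83.2 and 97.6. These cluster levels are descriptions with no test.

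**Figure D3:**
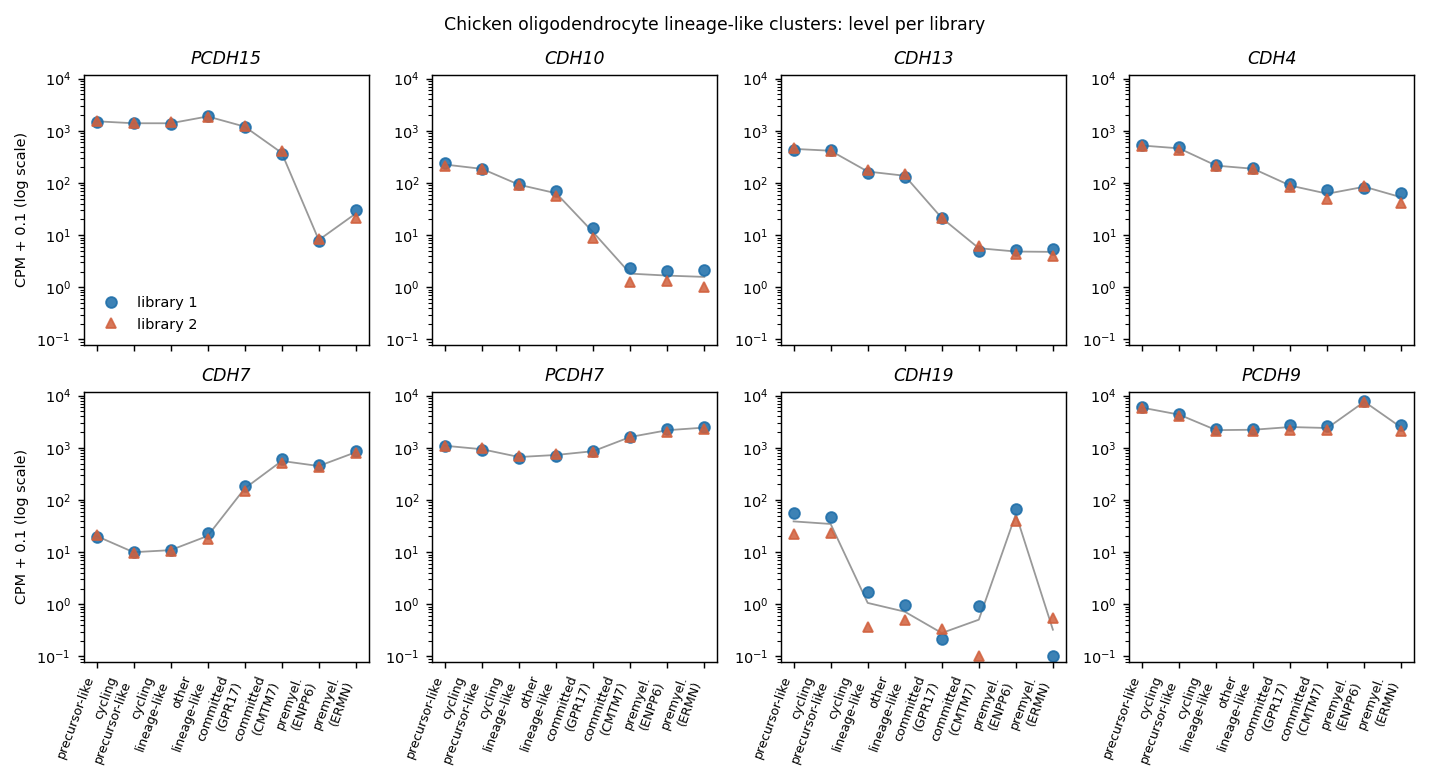
Levels of 8 chicken members (CPM + 0.1, log axis) in the 8 clusters of the oligodendrocyte lineage. Each point is a library and the line joins the means. PCDH15 was at 1186 CPM or more from the precursor-like to the GPR17 cluster, CDH7 rose across the committed clusters, and CDH19 and PCDH9 were high in precursor-like and PLLP clusters and lower between them. The axis names the premyelinating clusters by ENPP6 and ERMN. The one with more PCDH9 is the PLLP cluster of the text, and the other is the FABP9 cluster.

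Committed precursor-like cells were then set against the mean of the classes on either side, precursor-like and premyelinating-like. Of 21 members tested, 4 were called higher (24.9% of all 9366 genes were) and 10 lower (19.9%). Of these 21, 8 passed the filter through the neighbouring classes alone, and of the 13 that passed on both sides 4 were higher and 5 lower. The members higher in between were PCDH15 (833 and 826 CPM, log2 fold change 2.54 ± 0.2002 SE), CDH7 (365 and 323 CPM, 1.76 ± 0.221), CDH11 and CDH8. CDH11 was the one of them above both neighbours, with 266 and 275 CPM against at most 161 (1.00 ± 0.153, edgeR adjusted p 1.31e-05). CDH8 (0.48, adjusted p 0.0235) was no longer called under 6 alternatives, among them DESeq2 (0.37), library totals alone (0.33) and the fit without library 1 (0.22). Lowest against the mean was CDH19, at 0.415 and 0.126 CPM against 55.1 and 22.5 in precursor-like and 33.4 and 21.8 in premyelinating-like cells (-6.73 ± 0.774, adjusted p 5.07e-07). CDH6 (-2.19), CDH18 (-1.62), CDH13 (-1.55), PCDH19 (-1.34), CDH10 (-1.25), CDH4 (-1.17) and PCDH9 (-1.01) were also called lower, as averages of one high and one low neighbour for all but PCDH9. The PCDH19 call was lost without library 2 (-0.82).

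In fugu the step tested was from committed precursor-like to mature oligodendrocyte-like cells. In chicken the committed class lay between the classes first compared and no class was named mature, so the steps of the species are of different stages. Of 12 members tested, 10 were called higher in committed cells and 1 lower, against 16.8% and 30.6% of all 6269 genes. Of these 12, 10 passed the filter through committed cells alone, 9 of which were called higher, and 1 passed in both classes, so the count follows in part from the filter and does not set the members apart from other genes. The count also depends on the filter and the depth of a class of 57 and 43 cells: 18 members were called with no filter, 6 with a UMI required in 20% of cells, and 7 after thinning each cell to 3000 UMIs.

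The delta-1 protocadherins tested had passed the filter through committed cells alone, and the levels of 5 were called higher there. The sixth, PCDH9, was not tested, at 27.9 and 12.5 CPM in committed against 3.86 and 3.04 in mature cells. The pcdh7 copy pcdh7a had 88.7 and 74.9 CPM against 2.72 and 2.56 in mature cells, with no overlap (log2 fold change 4.59 ± 0.368 SE, edgeR adjusted p 1.87e-10). PCDH11Y, a fish gene carrying the name of a primate copy of the delta-1 PCDH11, had 43.1 and 31.2 CPM against 3.01 and 2.72 (3.35 ± 0.471). The pcdh1a level was 55.7 CPM in library 1 and 18.7 in library 2, against 3.86 and 3.04, and its call (3.12) was lost without library 1 (2.31). The pcdh7b call (1.96) was lost without either library (1.81 and 2.11), and pcdh1b was at 20.3 and 9.37 CPM against 3.43 and 3.997 (1.70 ± 0.644). Free RNA was measured in barcodes under 100 UMIs. There PCDH11Y was at 60.6 and 61.9 CPM, pcdh1a at 133 and 116 and pcdh1b at 74.2 and 54.7, above committed cells. The pcdh7a level there (31.6 and 31.5 CPM) was below that of committed cells.

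Among the other families, pcdh10b had 60.8 and 49.9 CPM in committed cells against 1.72 and 2.56 in mature cells (log2 fold change 4.33 ± 0.410 SE), and the type II CDH18 had 96.3 and 71.8 against 5.01 and 6.08 (3.59 ± 0.342, edgeR adjusted p 2.91e-09). N-cadherin is present as 3 fugu genes, of which the one tested (cdh2, ENSTRUG00000001621) was at 22.8 and 21.9 CPM against 1.86 and 1.76 (3.24 ± 0.539). The clustered protocadherins pcdh1g32 (535 and 425 CPM against 103 and 105, 1.89 ± 0.213) and pcdh2ac (76.0 and 62.4 against 9.16 and 10.7, 2.48 ± 0.350) were also higher. Clustered protocadherin isoforms share their last exons in fish and the libraries read the 3′ end, so these rows may hold reads of several isoforms. CDH8 did not pass the test (20.3 and 15.6 CPM against 7.16 and 7.35). In barcodes under 100 UMIs pcdh10b was at 79.8 and 68.4 CPM and cdh2 at 55.5 and 47.8. There pcdh1g32 was at 579 and 524 CPM and pcdh2ac at 186 and 170. All of these levels lay above those of committed cells, while the CDH18 level there (69.5 and 59.0 CPM) lay below. The part of free RNA in the committed-cell levels was not tested.

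The delta-2 protocadherin pcdh18b was the one tested member lower in committed cells, at 7.60 and 15.6 CPM against 99.9 and 107 in mature cells (log2 fold change -3.52 ± 0.458 SE, edgeR adjusted p 4.98e-07). This gene passed the filter through mature cells alone, so a higher level there was part of its selection. It was found in 39.9% and 43.5% of mature cells, and in 24.6% and 27.1% after thinning to 3000 UMIs. In T or NK cell-like cells, which should lack it, pcdh18b was found in 0 of 63 and 0 of 51 cells at a median of 5245.5 UMIs, against 5077 UMIs in mature cells, and its level in barcodes under 100 UMIs, a measure of free RNA, was 14.9 and 14.1 CPM. Neurons carried it too, at 36.6 and 29.8 CPM in excitatory and 40.3 and 30.5 in inhibitory neuron-like cells. By contrast, the other copy, pcdh18a, was at 0.286 and 1.12 CPM in mature cells.

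Against the mean of the other fugu classes, 2 of 32 members were called higher in mature cells, where 33.5% of all 10965 genes were. They were pcdh18b (log2 fold change 4.20 ± 0.221 SE) and an N-cadherin copy (CDH2, ENSTRUG00000029363), which was low at 11.2 and 12.95 CPM. The latter call (1.33) was lost with DESeq2 (0.58), with RLE factors (1.05) and without library 2 (1.18). Members could pass the filter through any fugu class, so the count of 2 does not set them apart from other genes.

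**Figure D4:**
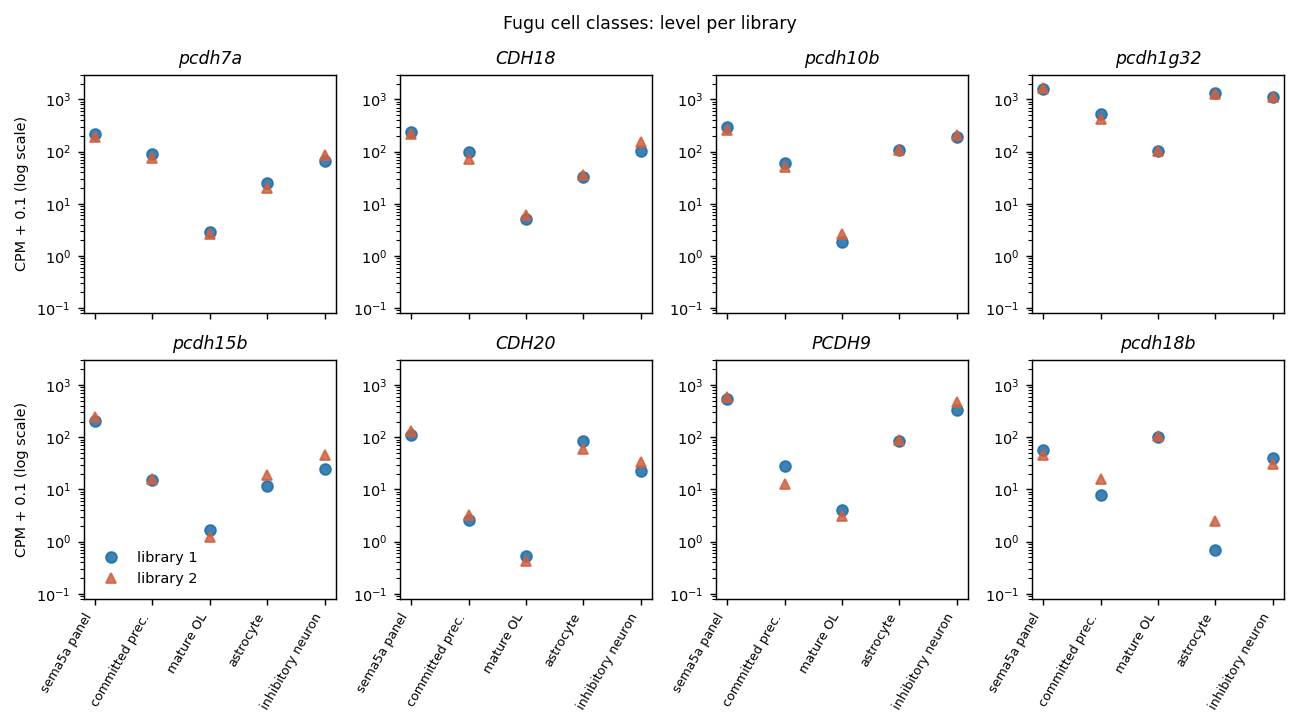
Levels of 8 fugu members (CPM + 0.1, log axis) in the sema5a panel, committed precursor-like, mature oligodendrocyte-like, astrocyte-like and inhibitory neuron-like classes. Each point is a library. Of these 5 classes, pcdh18b was highest in mature cells and the other 7 members were lowest there.

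The sema5a panel class was also compared with mature oligodendrocyte-like cells. Of 29 members tested, 27 were called higher in the sema5a panel class and 1 lower, against 29.8% and 35.5% of all 7160 genes. Of these 29, 27 passed the filter through the sema5a panel class alone, 26 of which were called higher, so a higher level there was part of their selection and the count does not set the members apart from other genes. With no filter 30 of 39 members were higher and 1 lower, a count for which no share of all genes is given. The part of neuronal transcripts in that count was not tested, and 2 of the 7 neuron markers listed reached the level set for a marker in this class.

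CDH20, a type II cadherin, had 109 and 133 CPM in the sema5a panel class against 0.429 and 0.320 in mature cells (log2 fold change 7.40 ± 0.434 SE, edgeR adjusted p 2.10e-14). CDH7 had 116 and 119 CPM against 0.716 and 0.480 (6.80 ± 0.443) and PCDH9 550 and 579 against 3.86 and 3.04 (6.72 ± 0.340). The fish PCDH15 copy pcdh15b had 204 and 239 CPM against 1.57 and 1.12 (6.66 ± 0.375) and one PCDH17 copy (ENSTRUG00000030227) 142 and 154 against 1.14 and 0.640 (6.62 ± 0.427). CDH6 (ENSTRUG00000001290) had 28.4 and 32.9 CPM against 0 and 0.160. In all 6 the libraries lay far apart, and the lower member was again pcdh18b, at 56.8 and 45.7 CPM (-1.59 ± 0.293).

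CDH7 and pcdh15b had higher levels in the sema5a panel class than in every other fugu class, which was not particular to them. The mean was highest there for 18 fugu members. For 14 of these, CDH7 and pcdh15b among them, both libraries lay above both libraries of the next class. The share of all genes for these counts is not given, so they do not set the members apart from other genes. They rest on CPM without edgeR's scaling. That scaling shifted sema5a panel levels by -0.43 and -0.41 and mature levels by 0.17 and 0.17 on the log2 scale. CDH7 had at most 61.0 CPM elsewhere and pcdh15b at most 157 CPM, both in neuron-like cells. PCDH20 (ENSTRUG00000017193), too rare to be tested, had 8.65 and 11.0 CPM there and at most 1.36 CPM in the other classes. In chicken PCDH20 was among the members higher in precursor-like cells, at 27.8 and 25.2 CPM. The species differ in age and in the classes found, so these values stand side by side without a test.

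For the difference between oligodendrocyte lineage and astrocyte-like cells, the mean log level of the lineage classes was set against astrocyte-like cells in each species. In chicken 5 of 22 members were called higher in the lineage and 11 lower, against 36.0% and 32.9% of all 10321 genes (median log2 fold change -0.51 against 0.06). Of the 22, 18 had passed the filter on both sides, and 3 of them were called higher and 10 lower. Another 3 passed through the lineage alone, 2 of which were called higher. The remaining 1, PCDH18, passed through astrocyte-like cells alone and was called lower. In fugu 1 of 21 members was called higher and 15 lower, against 28.4% and 28.5% of all 7753 genes. There 9 of the 21 passed the filter through astrocyte-like cells alone and 3 through the lineage alone, among them the 1 called higher. Of the 9 that passed on both sides 7 were called lower and 0 higher. The other lower calls were of members that passed on 1 side alone. The fugu counts thus follow in part from the filter and do not set the members apart from other genes. No share of all genes is given for those that passed on both sides, in either species. The fugu mean held the committed precursor-like and mature classes and not the sema5a panel class. With that class added, an alternative chosen after seeing the data, 8 of 29 members were called higher and 11 lower, and 12 of the 16 calls were kept. The share of all genes called under this alternative is not given, so its counts do not set the members apart from other genes.

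In chicken PCDH15 stood out on the lineage side, at 14.7 and 18.3 CPM in astrocyte or radial glia-like cells and up to 1906 CPM in lineage classes, although premyelinating-like cells (19.4 and 14.0) overlapped the astrocyte levels (log2 fold change 5.29 ± 0.269 SE, edgeR adjusted p 2.85e-14). CDH9 (2.04), CDH7 (1.34) and CDH23 (1.40, lost without library 1 at 1.16 and without the cycling and MCM2 classes at 0.88) were also called higher. CDH11 was above the astrocyte level (77.1 and 67.6 CPM) in each lineage class, where it lay between 124 and 275 CPM (1.09 ± 0.153).

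On the astrocyte side in chicken, PCDH18 was at 33.0 and 25.8 CPM in astrocyte or radial glia-like cells and between 0.252 and 2.14 in lineage classes (log2 fold change -5.12 ± 0.165 SE, edgeR adjusted p 1.78e-17). CDH4 had 767 and 707 CPM against at most 527 (-1.94 ± 0.0947). PCDH19 had 122 and 126 CPM against at most 83.3 in any lineage class (-2.61 ± 0.151). CDH19 (87.9 and 45.1 CPM, -3.96), CDH6 (34.2 and 24.5, -2.70) and CDH13 (527 and 464, -2.63) were called lower in the lineage too, but the precursor-like class overlapped the astrocyte range of each. CDH10 (-0.98) was called lower on average although precursor-like cells (239 and 212 CPM) had more of it than astrocyte-like cells (75.2 and 69.8). CDH20 (-0.73) was at 536 and 570 CPM in precursor-like against 548 and 495 in astrocyte-like cells, and its call was lost without library 1 (-0.49).

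In fugu pcdh18b was the member higher in the lineage, at 0.585 and 2.43 CPM in astrocyte-like cells (log2 fold change 4.52 ± 0.640 SE, edgeR adjusted p 6.60e-07). The astrocyte-like levels of CDH20 were 83.1 and 58.2 CPM against at most 3.12 in the lineage (-5.71 ± 0.391), and those of cdh11 74.3 and 61.6 against at most 7.60 (-4.23 ± 0.317). For cdh2 (ENSTRUG00000001621) they were 97.8 and 89.8 against at most 22.8 (-3.64 ± 0.253), and for pcdh10b 107 and 107 against at most 60.8 (-3.07 ± 0.230). PCDH9 (-3.13), the pcdh17 copy ENSTRUG00000017196 (-3.59), cdh4 (ENSTRUG00000011567, -4.01), CDH22 (-3.30) and CDH6 (ENSTRUG00000001290, -4.73) were lower in the lineage as well. So were the clustered pcdh1g32 (-2.33), whose level in astrocyte-like cells was 1302 and 1274 CPM, and pcdh2ac (-2.16), and the pcdh10a (-1.84), PCDH11Y (-1.59) and pcdh1b (-1.51) genes, of which the last was lost without library 2 (-1.17).

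The sema5a panel class was not on that side of the difference for several of these members. It had 109 and 133 CPM of CDH20, 188 and 221 of cdh2 (ENSTRUG00000001621) and 127 and 150 of cdh11, each above the astrocyte-like levels. With this class in the lineage mean, CDH20 (-3.63), cdh2 (-2.13), cdh11 (-2.56) and pcdh10b (-1.66) were still called lower and pcdh18b (4.58) higher. The calls lost included those of pcdh10a (-0.34), pcdh7b (-0.61) and pcdh1b (-0.34), and CDH8 (2.07), pcdh1a (1.22) and pcdh7a (0.74) were called higher. The direction of pcdh1a and pcdh7a thus turned with the classes taken into the mean.

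Symbols called lower in the lineage in both species were CDH2, CDH4, CDH6, CDH20 and PCDH10. The fugu mean left out the sema5a panel class, where the called cdh2, cdh4, CDH6, CDH20 and pcdh10b genes had their highest levels of the tested classes. In chicken the CDH20 call was lost without library 1 (-0.49), and the precursor-like class overlapped the astrocyte range of CDH6. Chicken PCDH10 was higher in precursor-like (237 and 244 CPM) than in astrocyte-like cells (231 and 222). Symbols with opposite calls were CDH11 (1.09 in chicken, -4.23 in fugu) and PCDH18 (-5.12 in chicken PCDH18, 4.52 in fugu pcdh18b), a difference that was not tested. Chicken PCDH18 and fugu cdh11 passed the filter through astrocyte-like cells alone, and pcdh18b through the lineage alone. A higher level on that side was thus part of their selection. The other fugu copy, pcdh18a, was not tested in this comparison. The fugu cdh11 level of the sema5a panel class lay above that of astrocyte-like cells. PCDH7 did not pass the test in chicken (-0.20), nor did pcdh7a in fugu (-0.37), whereas pcdh7b was lower (-1.89). For CDH2, CDH4 and CDH6 the fugu call rests on a single copy of each (ENSTRUG00000001621, ENSTRUG00000011567 and ENSTRUG00000001290). Another CDH2 copy (ENSTRUG00000029363) did not pass the test (-0.49). The copies CDH2 (ENSTRUG00000008035), CDH4 (ENSTRUG00000007673) and cdh6 (ENSTRUG00000011839) were not tested.

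**Figure D5:**
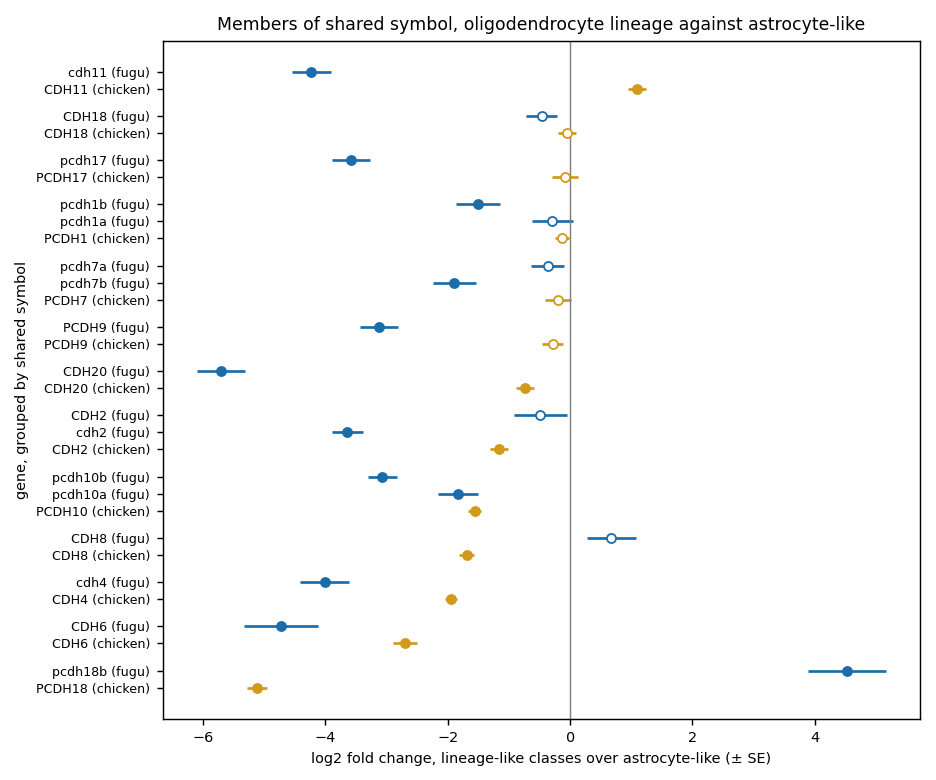
Log2 fold change ± SE of the oligodendrocyte lineage mean against astrocyte-like cells for members with a symbol in both species, fish copies apart. Filled points were called. CDH11 and PCDH18 lie on opposite sides of 0 in the 2 species.

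Among neurons, inhibitory were compared with excitatory neuron-like cells. In chicken (965 and 571 against 76 and 130 cells) 13 of 24 members were called higher in inhibitory cells and 6 lower. Of all 10253 genes, 14.3% and 11.6% were (median log2 fold change 1.11 in members against 0.05). Of the 24, 4 passed the filter through inhibitory cells alone and all 4 were called higher, so a higher level there was part of their selection. The other 20 passed in both classes, and 9 of them were higher and 6 lower. No share of all genes is given for the counts of the 20. In fugu (128 and 127 against 115 and 131 cells) 1 of 32 was higher and 3 lower, against 3.13% and 4.14% of all 7510 genes. Of the 32, 3 passed the filter through inhibitory and 4 through excitatory cells alone. Among the 25 that passed in both, 1 was higher and 2 lower. The other lower call was of a member that passed in 1 class alone. These counts do not set the fugu members apart from other genes. SLC17A6, a vesicular glutamate transporter and so an excitatory marker, had a UMI in 18.9% and 20.7% of chicken inhibitory neuron-like and 94.7% and 97.7% of excitatory neuron-like cells, and leaving those cells out gave the same 19 calls in chicken and the same 4 in fugu.

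The chicken members with the largest excess in inhibitory cells were CDH23, CDH15 and CDH7. CDH23 had 38.1 and 57.8 CPM against 8.51 and 0.717 (log2 fold change 3.84 ± 0.532 SE), CDH15, the M-cadherin of muscle, 9.78 and 12.0 against 0 and 1.08 (3.79 ± 0.777), and CDH7 291 and 240 against 46.8 and 33.0 (2.75 ± 0.320, edgeR adjusted p 1.30e-06). PCDH19 (164 and 125 CPM against 39.1 and 30.1, 2.07), CDH13 (440 and 393 against 95.3 and 99.0, 2.05), CDH18 (437 and 378 against 187 and 102, 1.49) and PCDH9 (3351 and 3241 against 1318 and 1131, 1.37) were higher without overlap. CDH22 (19.3 and 21.4 CPM against 6.81 and 3.94) and PCDH8 (27.5 and 19.4 against 8.51 and 6.81) were called (1.99 and 1.63), but the first call was lost without library 2 (1.44) and the PCDH8 call without either library (1.46 and 1.63).

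CDH8 was the member that most marked the chicken excitatory class, at 1452 and 1104 CPM against 239 and 252 (log2 fold change -2.44 ± 0.194 SE, edgeR adjusted p 4.02e-09). PCDH18 (-1.63), CDH11 (240 and 369 CPM against 122 and 131, -1.34 ± 0.190) and PCDH1 (63.0 and 57.4 against 22.9 and 26.3, -1.33 ± 0.152) were also higher in excitatory cells. PCDH15 (646 and 597 CPM against 374 and 364, -0.80) and CDH3, or P-cadherin (17.0 and 20.4 against 9.11 and 6.69, -1.30), were called, yet both calls were lost when either library was left out (-0.76 and -0.85 for PCDH15, -1.65 and -0.97 for CDH3).

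In fugu CDH22 was the clearest difference between the neuron classes, at 289 and 360 CPM in excitatory against 47.7 and 19.9 in inhibitory neuron-like cells (log2 fold change -3.28 ± 0.313 SE, edgeR adjusted p 9.75e-09). The pcdh15b (157 and 101 CPM against 24.4 and 45.7, -1.86) and cdh11 (239 and 178 against 84.3 and 92.6, -1.23) levels were also higher in excitatory cells, and PCDH9 (337 and 481 against 183 and 210, 1.05) in inhibitory cells. Without library 1 only 1 of these 4 calls was left, for CDH22, and without library 2 the PCDH9 call was lost (0.84). CDH8 had 500 and 627 CPM in inhibitory and 724 and 703 in excitatory cells and did not pass the test (-0.34 ± 0.213). CDH22 thus had opposite signs in the species. CDH11, PCDH9 and PCDH15 (pcdh15b in fugu) had the same sign in both, and the species were not tested against each other.

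Set against the mean of all other classes of the species, classes differed in how many members were called higher. In both species a gene entered these tests if it passed the filter in any class, which could be the class where it was highest. A higher level in that class was then part of its selection. The members that entered in this way were not counted, so the counts do not set the members apart from other genes. In fugu 31 of 32 were higher in inhibitory (33.4% of all genes), 29 in excitatory (33.0%), 29 in sema5a panel (24.9%), 19 in immature neuron-like (20.3%) and 15 in astrocyte-like cells (27.9%). CDH24, a type II cadherin, was at 36.6 and 36.7 CPM in excitatory, 18.3 and 17.6 in inhibitory and 8.47 and 6.97 in immature neuron-like cells, and at most 3.71 CPM elsewhere. CDH8 had 724 and 703, 500 and 627, and 366 and 420 CPM in the same classes, 259 and 307 in the sema5a panel class and at most 22.2 elsewhere. The delta-1 pcdh1a had 615 and 567 CPM in excitatory and 553 and 615 in inhibitory cells.

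The fugu immune classes and glia with her9 held few members at such levels. No member was called higher in T or NK cell-like cells (13.3% of all genes were), where 0 had an unadjusted p under 0.05 with a positive change and DESeq2 also called 0. In microglia-like cells 1 was, cdh2 (ENSTRUG00000001621), at 52.7 and 53.0 CPM (1.19 ± 0.229, 26.5% of all genes), and that call was lost without library 2 (1.01). The cdh2 level in barcodes under 100 UMIs, 55.5 and 47.8 CPM, overlapped the microglia-like levels. The pcdh17 copy ENSTRUG00000017196 was at 606 and 606 CPM in cycling her9 glia-like cells, and at most 282 CPM in any other class. In her9 glia-like cells outside the cycle it was at 22.2 and 30.6 CPM. CDH20 was at 119 and 91.5 CPM in aqp1a.1 glia-like cells, which overlaps its range in the sema5a panel class.

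In chicken 22 of 28 members were higher in inhibitory neuron-like (36.0% of all 11876 genes), 17 in precursor-like (23.1%), 17 in astrocyte or radial glia-like (33.9%), 15 in excitatory neuron-like (30.0%) and 8 in premyelinating-like cells (37.9%). These counts, and those of the vascular-like classes below, carry the same limit of entry through any class. CDH9 had its highest levels, 665 and 459 CPM, in an unnamed class led by GRP and PKD2L1 with 3 of 4 ependymal or floor plate markers and 4 of 6 neuron markers, against 147 and 123 CPM in inhibitory neuron-like cells. CDH4 was highest in an unnamed class led by LECT1, at 1341 and 1076 CPM, where PCDH8 was also at its highest, 88.7 and 56.6 CPM. The unnamed class led by HBBA had 1 member called (13.4%), CDH23, at 1.63 and 8.50 CPM, which was lost without library 2 (1.49) and with library totals alone (0.72).

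The chicken vascular-like classes had members of their own. In the VWF class (26 and 23 cells, 7 of 28 members higher, 15.6% of all genes), VE-cadherin (CDH5), the cadherin of endothelial junctions, had 766 and 730 CPM and PCDH12, the other vascular endothelial member, 358 and 346. Outside the vascular-like classes CDH5 was at most 0.969 and PCDH12 at most 0.189 CPM. CDH11 (592 and 495 CPM), PCDH19 (648 and 588) and PCDH1 (145 and 130) also had their highest levels there.

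In the FN1 class (73 and 97 cells, 7 members higher, 24.0% of all genes), which carried 5 of 6 meningeal or mesenchymal and 4 of 7 endothelial or mural markers, PCDH18 had 930 and 1001 CPM (log2 fold change 8.62 ± 0.129 SE), against at most 68.0 in any other class. CDH13 (1432 and 1953 CPM) and CDH2 (1499 and 2331) were also highest there. CDH5 (0 and 10.2 CPM) and PCDH12 (0 and 5.81) were called there too, but rest on library 2 and turned to -3.14 and -1.94 without it.

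The fugu ACTA2 vascular-like class (31 and 44 cells, 4 of 32 members higher, 14.9%) carried 9 of 9 mural but 2 of 6 endothelial markers. The delta-2 pcdh18a was at 378 and 347 CPM there (log2 fold change 6.32 ± 0.288 SE) and at most 43.4 elsewhere, CDH10 at 370 and 260 (5.67 ± 0.325) and the delta-1 pcdh1b at 408 and 690 (4.76 ± 0.234). The fugu cdh5, too rare to be tested, was at 177 and 5.11 CPM with a UMI in 3.23% and 2.27% of cells, so that the value of library 1 comes from a single cell. The levels of PCDH18 in the chicken FN1 class and of pcdh18a in the fugu ACTA2 class stand side by side, and the species were not tested against each other.

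Catenins and other partners, which the member rule does not take, were looked at from a list of 37 chicken and 45 fugu genes. Between chicken precursor-like and premyelinating-like cells, 15 of 25 tested were higher and 4 lower, against 29.6% and 44.1% of all genes tested. Partners went through the same filter, and those that passed it through 1 class alone were not counted. The partner counts therefore do not set the partners apart from other genes. The alpha-catenin CTNNA2, which links cadherins to actin in neural cells, had 832 and 831 CPM against 15.4 and 14.1 (log2 fold change 5.22 ± 0.172 SE, edgeR adjusted p 6.65e-17). The plaque protein PKP2 (13.8 and 18.0 CPM against 0 and 0.204) and the calsyntenin CLSTN2 (65.5 and 67.9 against 4.26 and 2.24, 3.81) were also higher. CYFIP2, of the WAVE complex, had 49.7 and 80.5 CPM against 243 and 244 (-2.52), and ADAM10, the sheddase of N-cadherin, 132 and 140 against 246 and 254 (-1.48).

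Between fugu committed and mature cells, 7 of 24 partners tested were higher and 5 lower, against 16.8% and 30.6% of all genes tested, with the same limit of the filter. The giant cadherin fat3a had 22.8 and 43.7 CPM against 1.57 and 2.88 (log2 fold change 3.50) and abi1b, of the WAVE complex, 340 and 331 against 64.3 and 57.4 (2.14). The calsyntenin clstn3 (10.1 and 9.37 CPM against 33.1 and 51.5, -2.42) and the plaque protein pkp4 (25.3 and 9.37 against 66.7 and 67.2, -2.21) were lower in committed cells. In chicken PKP4 was lower in precursor-like cells (130 and 154 CPM against 232 and 266, -1.41).

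Libraries of a species gave close levels for most members. The largest median differences of one sign in each class compared were those of CDH19 and CDH6 in chicken and of a PCDH17 copy (ENSTRUG00000030227) and CDH10 in fugu. CDH19 was higher in library 1 in each of 5 classes with enough counts, by a median log2 difference of 0.99 (range 0.60 to 1.53), and CDH6 in each of 6, by 0.56 (0.17 to 0.95). The fugu PCDH17 copy was lower in library 1 in each of 3 classes, by a median log2 difference of -0.52 (range -0.82 to -0.11), and CDH10 in each of 3, by -0.43 (-1.13 to -0.15). Other members of one sign had smaller medians, among them PCDH18 of chicken (0.34 over 3 classes) and PCDH11Y of fugu (-0.31 over 5). The origin of these differences was not tested.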

How the data were processed

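Rostral spinal cord cells of fugu, chicken and mudskipper were profiled by 10x 3′ chemistry in 2 libraries per species. The deposited UMI counts per gene and barcode were made by the authors, and the submitters' processing notes name Cell Ranger 7.2.0 and Seurat 5.3.0. All barcodes were deposited, and those above the authors' UMI minimums were kept here. Doublets were removed by highest Scrublet score at a rate that grows with the barcodes kept (scanpy 1.11.5). Depth per library and the precision it gives are in the report.

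Members were taken by symbol alone, with no measured value in the rule, and grouped by textbook families. These rules and the marker and partner lists were set with earlier results of these data known. The rule that turns markers into class names was set after the clusters were seen. Each species was clustered in Seurat 5.3.0 (2000 variable features without members, 10 principal components, resolution 0.5). A class name needed 3 markers and 50% of its list at 1.5 times the level elsewhere, and lineage classes needed SOX10 in 50% of cells. The sema5a panel class met this too but was kept out of the main fugu lineage mean. The fugu class led by hbbe2 (under 20 cells a library) was left out of the tests. Counts were summed per library and class and fitted with edgeR 4.0.16 (TMM, quasi-likelihood), all classes of a species together: 11876 genes in 30 chicken sums and 10965 genes in 26 fugu sums. Genes needed a UMI in 10% of the cells of a compared class, and p-values were adjusted by Benjamini-Hochberg over all genes tested. Classes come from the same cells by other genes, so many genes differ between any pair. Each main count of members is given beside the share of all genes called, and counts under alternatives are not.

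The text names members mainly from the up to 8 called members with the largest change in each direction of a comparison, those called in the same comparison of both species, up to 3 per class against the others, the shared symbols called between lineage and astrocytes, and up to 3 partners each way in the precursor comparisons. Other members named were chosen after their values were seen. Alternatives were DESeq2 1.42.0, RLE factors, other filters and UMI minimums, a doubled doublet rate, thinning, other clusterings, the library as a block and each library left out. Library totals alone, a lineage mean without cycling and MCM2 classes, a fugu lineage mean with the sema5a panel class, inhibitory cells without SLC17A6 and class comparisons without a library were added after seeing the data. Pairing by library follows from the design, as the pooled animals of a library supply all of its classes, and same-library deviations from class means correlated at 0.0500 to 0.400. The tests were first run on simulated data. Mudskipper genes carry identifiers alone, so members were taken by identifier from the authors' gene table. No gene coordinates or sequences were used.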

Additional observations from a re-analysis of the deposited data

Results flagged for a closer look

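Some members had opposite signs in the same comparison of the 2 species, a difference that was not tested. In the oligodendrocyte lineage against astrocyte-like cells, PCDH18 was at a log2 fold change of -5.12 in chicken and pcdh18b at 4.52 in fugu, and CDH11 was at 1.09 in chicken and cdh11 at -4.23 in fugu. Chicken PCDH18, fugu pcdh18b and fugu cdh11 each passed the filter only through the side where they were higher, which was thus part of their selection. The fugu mean leaves out the sema5a panel class, whose cdh11 level (127 and 150 CPM) was above that of astrocyte-like cells (74.3 and 61.6 CPM), and with it cdh11 was at -2.56 and pcdh18b at 4.58. In inhibitory against excitatory neuron-like cells, CDH22 was at 1.99 in chicken and -3.28 in fugu. The chicken CDH22 call was lost without library 2 (1.44). The species differ in age and in the classes of the lineage mean.

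The mudskipper libraries, which no comparison used, gave counts for 3 members matched by identifier. In 3721 and 3759 kept barcodes, Pcdh7 was at 84.8 and 99.9 CPM, Pcdh9 at 9.84 and 13.6 CPM and Pcdh17 at 43.7 and 58.8 CPM, above the 0.201 and 0.199 CPM that a count of 0 allows. In barcodes under 100 UMIs the levels were 158 and 149, 16.6 and 21.6, and 102 and 118 CPM, each higher than in the kept barcodes.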

How the results depend on the processing

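Over the alternatives, 263 counts of calls stayed within 1.5 times the main count and 13 did not. The fugu committed against mature count of 11 became 18 with no filter (of which 11 were in the main set), 6 with a UMI in 20% of cells and 7 after thinning. The count in fugu mature cells of 2 became 1 with DESeq2 and 1 with RLE factors, and that of the HBBA class of 1 became 0 with library totals alone. Leaving out a library gave 16 to 18 calls for chicken precursor-like against premyelinating-like cells (main 18), 11 to 12 for committed cells (14), 14 to 16 for lineage against astrocytes (16) and 15 to 15 for neurons (19). In fugu it gave 8 to 10 (11), 28 to 28 for the sema5a panel (28), 15 to 16 (16) and 1 to 3 for neurons (4). For classes against the others, the ranges that moved were 4 to 8 for LECT1 (7), 0 to 1 for HBBA (1), 3 to 4 for aqp1a.1 glia (6), 3 to 7 for cycling her9 glia (8), 1 to 2 for mature (2) and 0 to 1 for microglia-like cells (1). With the library as a replicate block, the committed count was 16 (14), fugu neurons 5 (4), excitatory 14 (15), precursor-like 18 (17), LECT1 8 (7) and fugu astrocyte-like 16 (15), and the other counts did not change. In the FN1 class, CDH5 ranged from -3.14 to 6.02 and PCDH12 from -1.94 to 6.42 when a library was left out, with the negative values without replicate 2, since library 1 has no UMI of either gene. Of 175 named fold changes, 29 lost a call under some setting. PCDH9 between chicken lineage and astrocytes gained one after thinning (-0.39), and pcdh7a in fugu at 1.5 times the UMI minimum (-0.72). With the sema5a panel class in the fugu lineage mean, pcdh7a turned to 0.74 (main -0.37; -0.45 to -0.29 without a library) and pcdh1a to 1.22 (main -0.29; -1.06 to 0.26 without a library), and CDH8 was called (2.07). Depth limits rare members, above all in fugu classes of under 60 cells a library.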
